A study of Homo sapiens with 12 samples.

Results

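The FOS family of AP-1 comprises FOS, FOSB, FOSL1 (also called FRA1) and FOSL2 (also called FRA2). The members were taken by symbol from the deposited table of RNA-Seq read counts, and they are 4 of its 19901 protein-coding genes. The choice of members was made with earlier results of these data known. All 4 passed the filter on low counts and are among the 13093 genes tested.

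FOS proteins are basic leucine zipper (bZIP) transcription factors. They do not form stable dimers with each other and instead pair with JUN, JUNB or JUND to make AP-1, which binds the TGAGTCA element and its reverse complement TGACTCA. FOS is the textbook immediate early gene (IEG): growth factors acting through the ERK cascade phosphorylate ternary complex factors that sit with SRF on its promoter, transcription starts within minutes without new protein synthesis, and the AU-rich mRNA is then quickly degraded. FOS and FOSB carry C-terminal transactivation domains that FOSL1 and FOSL2 lack, and FOSL1 is itself a target of AP-1. FOSL1 is a known effector of RAS signalling in colorectal carcinoma cells.

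The cells were HCT116, an established human colorectal carcinoma line, of genotype KAP1_dTAG_CloneD5. All 12 libraries thus come from 1 clone in which KAP1, the transcriptional regulator encoded by TRIM28, carries a degradation tag. Every group was grown in DMEM with FBS, held in serum-free medium for 48 h and exposed for 8 h to DMSO (the solvent) or dTAG, the small molecule that directs the tagged protein to degradation. DMSO-S0 and dTAG-S0 received no serum, DMSO-S30 and dTAG-S30 received serum for 30 min, where S0 is read from titles with Serum_0_30 and from table columns named SS. Each group held 3 libraries, described in the study's methods as biological replicates. RNA was depleted of ribosomal RNA and carried ERCC spike-ins, synthetic transcripts added in a fixed amount. The comparisons ask how far serum raises each member, and whether the level reached differs once KAP1 is depleted.

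Libraries held 20537682 to 26278707 counts, of which ERCC spike-ins took 7.97% to 9.37%. Spearman's rho across genes was 0.996 to 0.998 between replicates, and counts of replicates differed by more than sampling noise. The TRIM28 transcript was not called with dTAG (log2 fold change -0.06 without and -0.04 with serum), and since dTAG acts on the protein this is no check of KAP1 loss. Of the 7 epithelial markers listed, 6 had at least 10 counts in every library (EPCAM, 4873 to 6832 counts), and VIL1 had 1 to 7 counts. Fibroblast markers were at 0 to 15 counts except COL1A1 (250 to 1789 counts), which rose with serum (log2 fold change 2.48 in DMSO-treated and 2.47 in dTAG-treated cells). Leukocyte markers summed to 1.19 to 2.38 and endothelial markers to 2.32 to 4.42 CPM.

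FOS (ENSG00000170345.9) lies on hg38 chromosome 14 from 75278774 to 75282230, plus strand, and FOSB (ENSG00000125740.13) on chromosome 19 from 45467995 to 45475179, plus strand. FOSL1 (ENSG00000175592.8) lies on chromosome 11 from 65892049 to 65900573, minus strand, and FOSL2 (ENSG00000075426.11) on chromosome 2 from 28392448 to 28417312, plus strand. The authors counted reads over the whole gene, introns included, and exons of GENCODE v44 cover 92.2% of the FOS span, 77.3% of FOSB, 22.1% of FOSL1 and 28.8% of FOSL2. All of FOSB lies within ERCC1 (a DNA repair gene, not a spike-in) on the opposite strand. ERCC1 was 50.9 ± 1.83 (SD, n = 3) in normalised CPM without serum in DMSO-treated cells and 54.5 ± 3.57 (SD, n = 3) with it, while FOSB gained 417 CPM. FOSL2 shares 2233 bp with the antisense lncRNA FOSL2-AS1 and 296 bp with the lncRNA ENSG00000270640, and how reads in such stretches were assigned is not given in the sources used here.

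RefSeq promoter windows (GRCh38.p14, 250 bases before to 50 after the start) were at hand for 3 members, FOS, FOSB and FOSL2. The stretches below are printed because all 3 genes responded to serum and share a CRE-like word close to the start. They run 5′ to 3′ on the plus strand from 110 bases before the RefSeq start to the last base before an exon of GENCODE v44, at chr14:75278718-75278825, chr19:45467886-45467994 and chr2:28392748-28392801. Capitals mark TGACGT, the core of the cyclic AMP response element, and TATAAA, the TATA box. The RefSeq start lies downstream of the start of the counted gene for FOS (75278828) and FOSL2 (28392858), so the last 52 bases of the FOS stretch and all 54 bases of the FOSL2 stretch are inside the counted gene, and none of them is in an exon of GENCODE v44.
FOS: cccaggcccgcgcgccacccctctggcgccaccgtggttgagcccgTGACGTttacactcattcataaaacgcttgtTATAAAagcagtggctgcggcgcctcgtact
FOSB: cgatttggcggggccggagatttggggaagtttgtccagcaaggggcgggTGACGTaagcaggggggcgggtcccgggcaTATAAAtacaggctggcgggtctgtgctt
FOSL2: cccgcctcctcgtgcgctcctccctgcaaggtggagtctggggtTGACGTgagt

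Counted from the start, TGACGT began at base -64 in FOS, -60 in FOSB and -66 in FOSL2. It was found on either strand in 8.32% of 27305 windows, and it was added to the search after the sequences had been seen. TATAAA began at base -33 in FOS and -30 in FOSB, and 12% of windows held it. The full 8-base element TGACGTCA was in none of the 3 windows (1.98% of all windows), and neither was the CArG box, the SRF element (1.29%). The AP-1 word TGACTCA was in the FOSL2 window only, from base 5 to base 11 after the start, and in 4.92% of all windows. CCGGAA, an ETS-type word, was in FOSB (17.6% of windows), and GGCGG was in all 3 (58.6%). These are matches of letters within 300 bases and not evidence of binding. The windows begin 250 bases before the start, so elements farther upstream were not searched.

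FOS was low without serum and among the most abundant transcripts 30 min after it. In DMSO-S0 it was at 6.41, 5.18 and 4.86 normalised CPM (counts scaled to library size after upper-quartile adjustment) in replicates 1 to 3, and in DMSO-S30 at 536, 456 and 464. In dTAG-S0 it was at 5.08, 4.63 and 5.04 CPM, and in dTAG-S30 at 372, 403 and 399. All libraries with serum lay far above all libraries without, and at S30 the dTAG libraries all lay below the DMSO libraries. By level per kb of gene length, FOS ranked 4708 of 13093 genes in DMSO-S0 and 69 in DMSO-S30, against 5127 and 89 in dTAG-treated cells. By CPM without division by length it ranked 10824 in DMSO-S0 and 194 in DMSO-S30, against 10892 and 277 in dTAG-treated cells.

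FOSB, like FOS a member with transactivation domains, followed the same course. Its 3 libraries were at 5.09, 4.68 and 5.00 CPM in DMSO-S0 and at 447, 400 and 418 CPM in DMSO-S30. With dTAG the values were 4.42, 4.59 and 4.08 CPM at S0 and 353, 348 and 377 CPM at S30. The dTAG libraries lay below the DMSO libraries at both serum levels on this scale, and relative to the ERCC total those at S0 overlapped. FOSB ranked 7742 per kb in DMSO-S0 and 151 in DMSO-S30, and by CPM 10941 and 256.

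FOSL1 had a clear basal level and rose less steeply. In DMSO-S0 it was at 27.9, 26.0 and 28.3 CPM, and in DMSO-S30 at 221, 213 and 242 CPM. In dTAG-S0 it was at 32.8, 31.0 and 31.8 CPM, all above the DMSO-S0 libraries. In dTAG-S30 it was at 219, 196 and 234 CPM, which overlapped DMSO-S30.

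FOSL2 was the member with the most reads before serum. In DMSO-S0 it was at 87.5, 75.9 and 83.2 CPM, and in DMSO-S30 at 577, 554 and 623 CPM. In dTAG-S0 it was at 89.8, 79.7 and 98.2 CPM and in dTAG-S30 at 527, 483 and 564 CPM. The treatments overlapped at both serum levels. The levels of the 4 members in all libraries are plotted on a shared log axis.

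**Figure D1:**
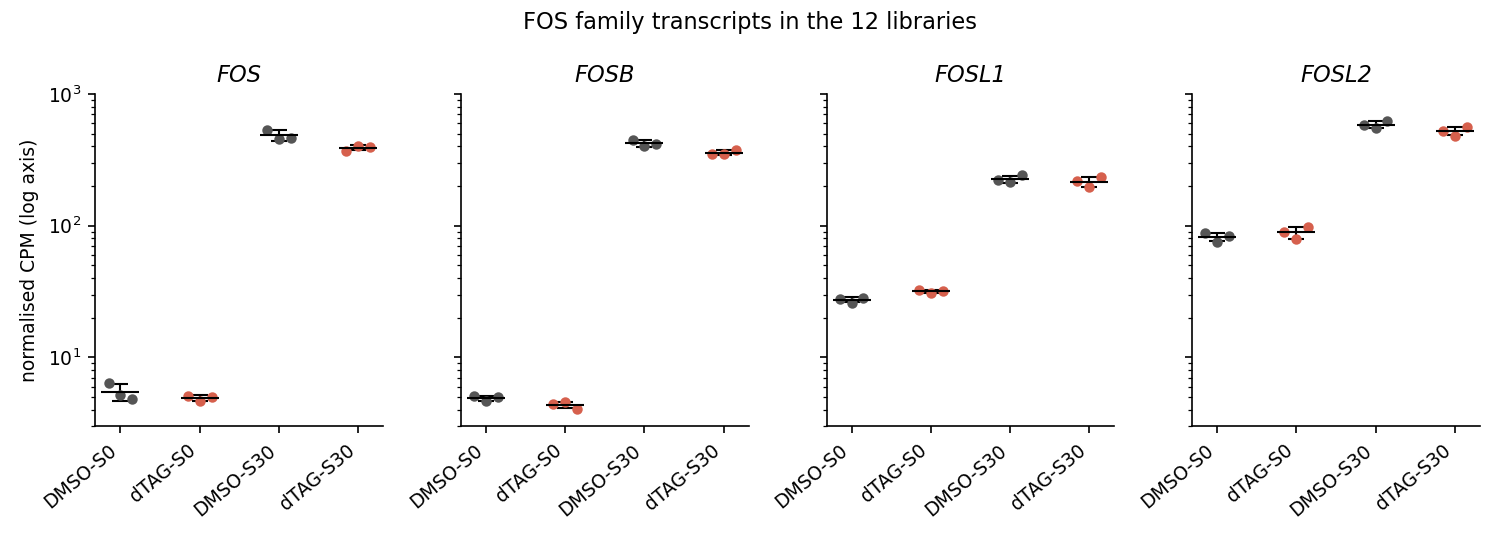
Normalised CPM (log axis) of each FOS family member in the 4 groups, with DMSO libraries in grey and dTAG libraries in red, replicates 1 to 3 from left to right, and bars for mean ± SD. FOS and FOSB start near 5 CPM and are at 348 CPM or more in every library with serum, while FOSL1 starts at 26.0 to 32.8 CPM and FOSL2 at 75.9 to 98.2 CPM.

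Serum raised all 4 members in DMSO-treated cells, where 9.18% of the genes tested were called higher and 17.1% lower (edgeR, adjusted p below 0.05). Under TMM scaling these shares were 13.5% and 9.07%. FOS was 89.3-fold higher (95% confidence interval 77.7 to 103; log2 fold change 6.48, SE 0.10, adjusted p = 1.07e-26). FOSB was 85.2-fold higher (75.5 to 96.2; log2 fold change 6.41, SE 0.09, adjusted p = 1.80e-27). FOS and FOSB thus held ranks 4 and 5 among all genes tested by log2 fold change. FOSL1 was 8.27-fold higher (7.42 to 9.21; adjusted p = 8.56e-22) and FOSL2 7.23-fold higher (6.44 to 8.11; adjusted p = 1.48e-20), at ranks 49 and 55. In all 4 members the DMSO-S30 libraries lay above the DMSO-S0 libraries, as they did in 13.8% of the genes tested. The median log2 fold change of all genes was -0.07. In such bulk samples a change in the share of responding cells and a change in RNA per cell cannot be told apart.

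In dTAG-treated cells serum again raised all 4 members, with 9.09% of genes called higher and 15.4% lower (13.6% and 8.49% under TMM scaling). FOS was 79.3-fold higher (69.3 to 90.7), FOSB 82.6-fold (73.4 to 93.0), FOSL1 6.77-fold (6.12 to 7.50) and FOSL2 5.82-fold (5.22 to 6.50), with edgeR adjusted p-values from 1.35e-27 to 7.76e-20. The ranks were 4, 3, 46 and 56. Libraries with serum lay above those without in all 4 members, as in 12.6% of genes.

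The members split into a pair of steep responders, FOS and FOSB, and a pair with a basal level and a smaller fold, FOSL1 and FOSL2. The size of the split was measured on ratios between members in the same library, in which scaling between libraries cancels. With serum the ratio of FOS to FOSL1 rose by 3.49 on the log2 scale, that of FOS to FOSL2 by 3.69, that of FOSB to FOSL1 by 3.49 and that of FOSB to FOSL2 by 3.69. Each had an exact permutation p of 0.005, the smallest that 400 assignments within treatments can give, and 0.006 after adjustment over the 6 ratios. The ratio of FOS to FOSB changed by 0.00 (exact permutation p = 0.955), and that of FOSL1 to FOSL2 by 0.20 (exact permutation p = 0.005, adjusted 0.006). This test of serum was added after the values had been seen, and the pairs were formed from fold changes of the same libraries. Its p-values are therefore no independent support for the split. The ratio of FOSL1 to FOSL2, within a pair, reached the same smallest p.

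Without serum the order of levels per kb of gene length in DMSO-S0 was FOSL2 at 3.31 ± 0.236 (SD, n = 3) CPM per kb, FOSL1 at 3.21 ± 0.148 (SD, n = 3), FOS at 1.59 ± 0.237 (SD, n = 3) and FOSB at 0.685 ± 0.0301 (SD, n = 3). FOSL2 and FOSL1 overlapped and the other neighbours did not. With serum the order in DMSO-S30 was FOS at 140 ± 12.7 (SD, n = 3), FOSB at 58.7 ± 3.34 (SD, n = 3), FOSL1 at 26.5 ± 1.74 (SD, n = 3) and FOSL2 at 23.5 ± 1.41 (SD, n = 3), where only FOSL1 and FOSL2 overlapped. In dTAG-S0 the order was FOSL1 at 3.74, FOSL2 at 3.59, FOS at 1.42 and FOSB at 0.607 CPM per kb, with overlap of FOSL1 and FOSL2. In dTAG-S30 it was FOS at 113, FOSB at 50.01, FOSL1 at 25.4 and FOSL2 at 21.1 CPM per kb, with no overlap.

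The order depended on the length that counts were divided by. Per kb of GENCODE v44 exons, a choice made after seeing the data, DMSO-S30 held FOS at 152, FOSL1 at 120, FOSL2 at 81.7 and FOSB at 75.9 CPM per exon kb, the last pair overlapping, so FOSB moved from the second place to the last. In DMSO-S0 the values were 14.5 for FOSL1, 11.5 for FOSL2, 1.72 for FOS and 0.887 for FOSB. On either length FOS had the highest mean with serum in both treatments, although per exon kb its dTAG-S30 libraries (117 to 126) overlapped those of FOSL1 (104 to 124), and FOSL1 and FOSL2 were above FOS and FOSB without it.

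The summed level of the family rose from 8.79 ± 0.555 (SD, n = 3) to 249 ± 16.0 (SD, n = 3) CPM per kb in DMSO-treated cells, 28.3 times higher. Its makeup turned over by this divisor. The fold of the sum was 14.3 without division by length and 15.01 per exon kb. FOS and FOSB, with shares of 18.01% ± 1.91 (SD, n = 3) and 7.80% ± 0.203 (SD, n = 3) were the minor part in DMSO-S0, and made up 56.3% ± 1.78 (SD, n = 3) and 23.6% ± 0.174 (SD, n = 3) in DMSO-S30. FOSL1 went from 36.6% to 10.7% and FOSL2 from 37.6% to 9.46%. In dTAG-treated cells the sum was 9.36 ± 0.471 (SD, n = 3) at S0 and 210 ± 7.51 (SD, n = 3) CPM per kb at S30, or 22.4 times higher (11.4 without division by length and 11.9 per exon kb). There FOS held 15.2% ± 0.192 (SD, n = 3) of the sum at S0 and 54.0% ± 1.91 (SD, n = 3) at S30. Shares depended on the divisor: in DMSO-S30 FOS held 28.2% and FOSL2 34.1% of raw counts, so that FOSL2 was the largest member there, and per exon kb they held 35.4% and 19.0%. In dTAG-S0 FOS held 3.78% of raw counts and 4.87% per exon kb. In dTAG-S30 the shares per exon kb were 32.8% for FOS, 17.2% for FOSB, 30.5% for FOSL1 and 19.5% for FOSL2. Of raw counts they were 26.3%, 24.1%, 14.5% and 35.2% in that order. On these divisors FOS and FOSB together were not clearly the larger part in dTAG-S30. At S30 the ratio of the dTAG sum to the DMSO sum was 0.842, and the 3 dTAG libraries (204 to 218) lay below the 3 DMSO libraries (235 to 266). These sums are a description and were not tested.

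**Figure D2:**
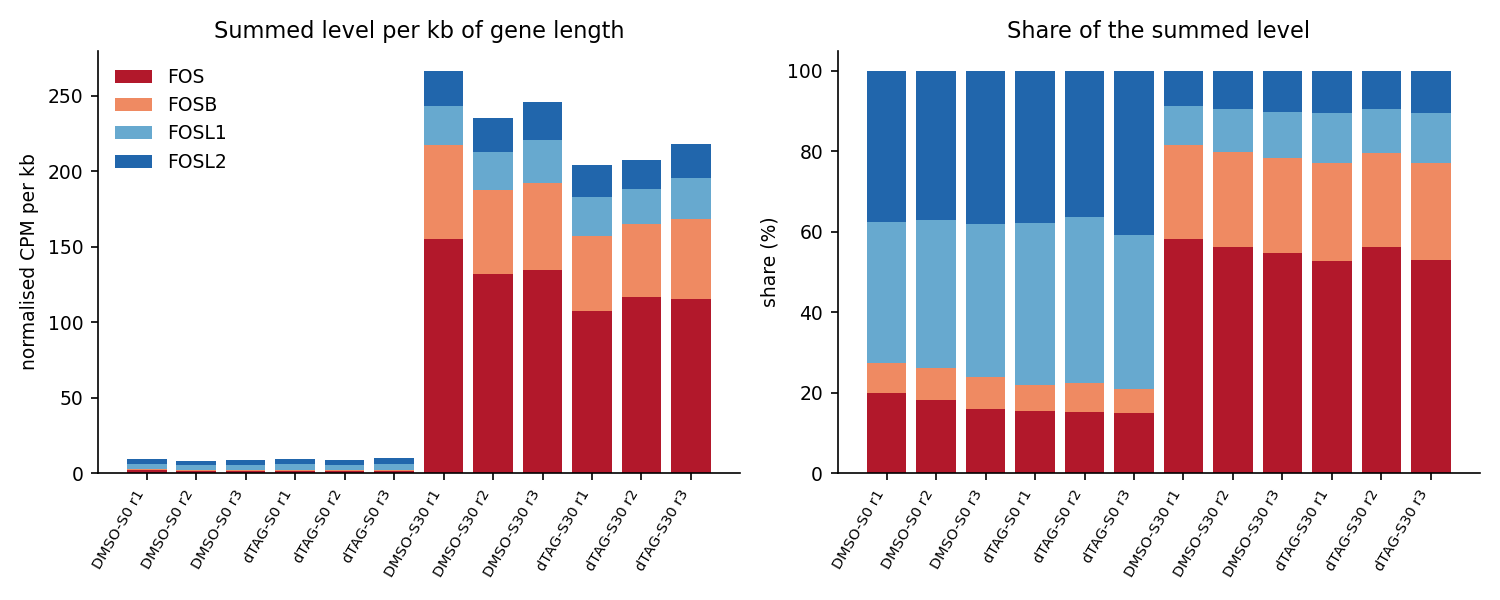
Summed level of the family in each of the 12 libraries in CPM per kb of gene length (left, bars from 0) and the share of each member in that sum in percent (right). Sums are under 10 CPM per kb without serum and 204 to 266 with it. By this divisor FOS and FOSB go from the smaller to the larger part of the sum in both treatments.

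Without serum, dTAG left none of the 4 members changed at an edgeR adjusted p under 0.05, where 1.31% of genes tested were called in either direction. At an unadjusted p under 0.05 there was 1 of 4, FOSL1, against 11.7% of all genes, and DESeq2 and the likelihood ratio test also called 0. FOSL1 was 16.7% higher with dTAG (95% confidence interval 4.41 to 30.3; log2 fold change 0.22, SE 0.08, edgeR adjusted p = 0.202). FOSL2 was 9.82% higher (-1.61 to 22.6, edgeR adjusted p = 0.525). FOS was at -9.68% (-25.2 to 8.996, edgeR adjusted p = 0.727) and FOSB at -11.6% (-25.4 to 4.78, edgeR adjusted p = 0.611), with only 94 to 121 raw counts per library behind each value. The dTAG and DMSO libraries did not overlap for FOSB and FOSL1, as in 17.7% of all genes.

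With serum, FOS was the member called lower in dTAG-treated cells, where 0.634% of genes were called lower and 1.23% in either direction. Its level was 391 ± 16.9 CPM (SD, n = 3) in dTAG-S30 against 485 ± 43.9 CPM (SD, n = 3) in DMSO-S30, a fitted change of -19.8% (95% confidence interval -27.5 to -11.3; log2 fold change -0.32, SE 0.07, edgeR adjusted p = 0.0166). Leaving out DMSO-S30 replicate 1, the highest FOS library, gave -0.25 (edgeR adjusted p = 0.0690), and leaving out dTAG-S30 replicate 1, the lowest of the S30 libraries, also gave -0.25 (adjusted p = 0.0948). The call was also lost with library sizes from the ERCC total (-0.31, edgeR adjusted p = 0.0516). Over the 9 other settings for FOS the adjusted p ran from 0.000351 to 0.0516, and the direction was the same in all 21 alternatives.

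FOSB stood just outside the threshold at S30, with 359 ± 15.4 CPM (SD, n = 3) against 422 ± 24.0 CPM (SD, n = 3). The fitted change was -14.3% (-21.4 to -6.50; log2 fold change -0.22, SE 0.06, edgeR adjusted p = 0.0802). It passed in 5 of the 9 other settings, among them TMM scaling (edgeR adjusted p = 0.0172) and DESeq2 (adjusted p = 0.00372), and in 1 of the 12 fits without 1 library (without DMSO-S0 replicate 1, edgeR adjusted p = 0.0188). It did not pass in the others, with an edgeR adjusted p of up to 0.329 with ERCC library sizes and 0.228 without DMSO-S30 replicate 3. FOSL2 was at -11.5% (-20.3 to -1.79, edgeR adjusted p = 0.354) and FOSL1 at -4.45% (-13.0 to 4.98, adjusted p = 0.799). FOS and FOSB were the members whose dTAG-S30 libraries did not overlap the DMSO-S30 libraries. Such a lack of overlap, in either direction, was found in 15.7% of all genes. In 1060 of the 13093 genes tested all dTAG-S30 libraries lay below, as in FOS and FOSB.

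**Figure D3:**
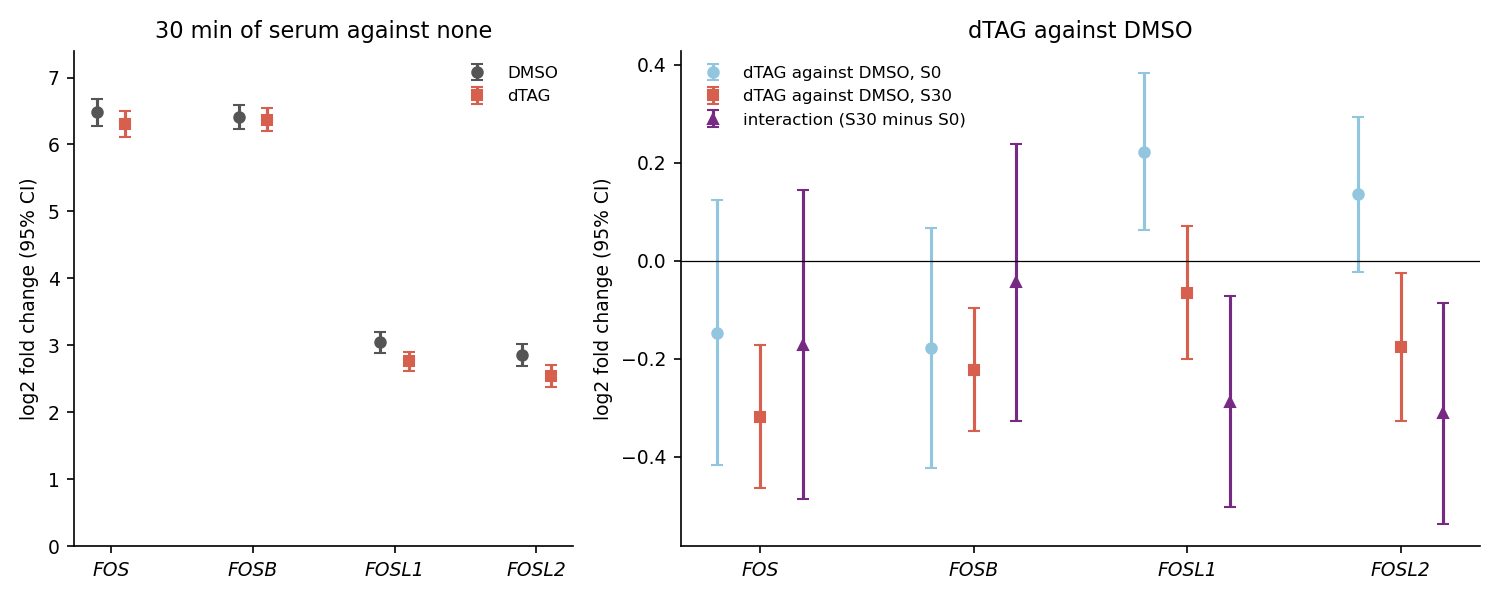
Fitted log2 fold changes of each member with 95% confidence intervals: serum against none in DMSO-treated (grey) and dTAG-treated (red) cells on the left, and dTAG against DMSO without serum, with serum, and the interaction on the right. Serum effects are 6.31 to 6.48 for FOS and FOSB and 2.54 to 3.05 for FOSL1 and FOSL2, and all dTAG effects lie between -0.32 and 0.22.

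**Figure D4:**
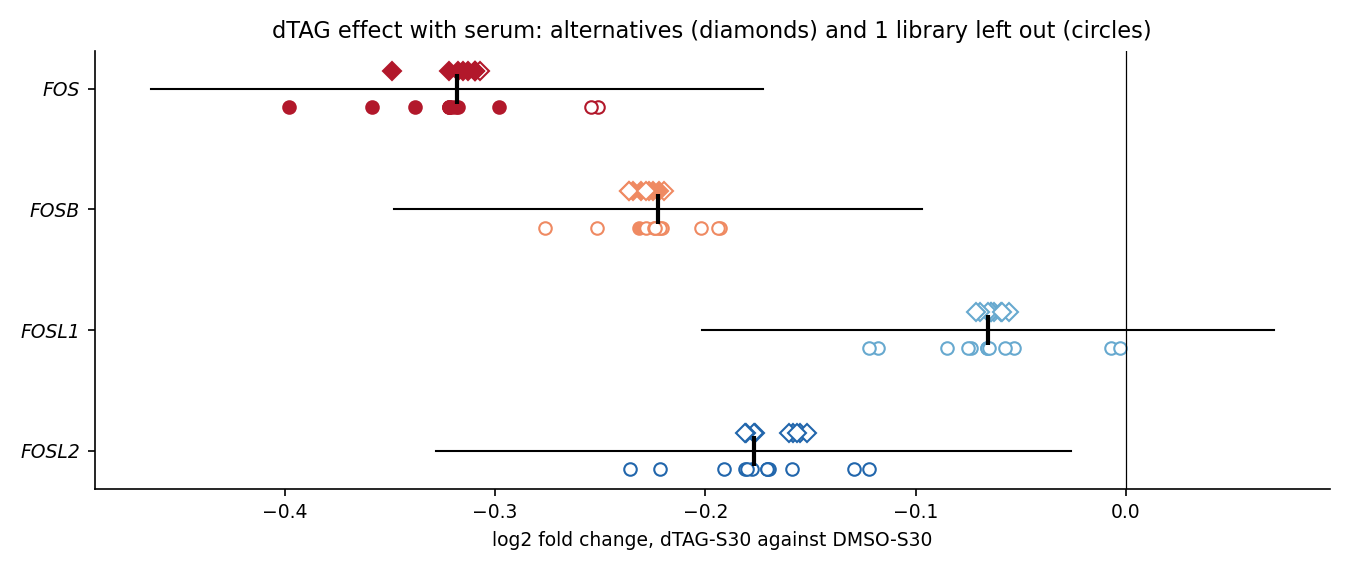
Log2 fold change of dTAG-S30 against DMSO-S30 for each member, with the reported value and its 95% confidence interval in black, the 9 other settings as diamonds and the 12 fits without 1 library as circles, filled where the adjusted p was under 0.05. FOS runs from -0.40 to -0.25 without 1 library, FOSB from -0.28 to -0.19, FOSL2 from -0.24 to -0.12 and FOSL1 from -0.12 to 0.00.

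The interaction asks whether the serum effect itself differed between treatments. None of the 4 members passed (edgeR adjusted p = 0.9999 for each), where 0.0382% of genes did, and DESeq2 and the likelihood ratio test also called 0. At an unadjusted p under 0.05 there were 2 of 4, FOSL2 at -0.31 (SE 0.11) and FOSL1 at -0.29 (SE 0.10), while 414 genes, or 3.16% of all, were under it. FOS was at -0.17 (SE 0.15) and FOSB at -0.04 (SE 0.14). For FOSL1 and FOSL2 the fitted dTAG effect was above 0 without serum and below 0 with it, and for FOS and FOSB it was below 0 at both.

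Whether dTAG moved the members relative to each other was tested on the same ratios within a library. The ratio of FOS to FOSL1 in DMSO-S0 was 0.425 to 0.568 per kb and in dTAG-S0 0.370 to 0.392, and with serum it was 4.73 to 5.97 in DMSO-S30 and 4.19 to 5.07 in dTAG-S30. Averaged over both serum levels, the change with dTAG was -19.1% (log2 -0.31, exact permutation p = 0.01, adjusted 0.03 over the 6 ratios). The ratio of FOSB to FOSL1 changed by -17.7% (log2 -0.28, exact permutation p = 0.01, adjusted 0.03), that of FOS to FOSL2 by -13.4% (log2 -0.21, exact permutation p = 0.03, adjusted 0.036) and that of FOSB to FOSL2 by -11.9% (log2 -0.18, exact permutation p = 0.025, adjusted 0.036). The ratio of FOSL1 to FOSL2 was 7.07% higher (exact permutation p = 0.03, adjusted 0.036), and that of FOS to FOSB differed by -1.73% (exact permutation p = 0.715). Within 1 serum level the smallest p that 3 against 3 libraries allow is 0.1. It was reached at S0 by the ratios of FOS and FOSB to FOSL1 and FOSL2, and at S30 by that of FOSL1 to FOSL2. At S30 the ratios of FOS and FOSB to FOSL1 and FOSL2 had exact permutation p of 0.2 to 0.3 (adjusted 0.3). At S0 the counts of FOS and FOSB were low, at 94 to 121 per library. The ratios of FOS to FOSL1 and FOSL2 changed by -22.4% and -16.8% at S0 and by -15.6% and -9.89% at S30. Those of FOSB to FOSL1 and FOSL2 changed by -23.8% and -18.3% at S0 and by -11.0% and -4.98% at S30. Whether the changes differed between serum levels was not tested.

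Most of these ratio calls were lost when 1 library was left out. Of 12 such tests each, FOS to FOSL1 passed in 6, FOSB to FOSL1 in 7 and FOS to FOSL2 in 2. FOSB to FOSL2 passed in 4 and FOSL1 to FOSL2 in 1. The log2 changes stayed at -0.36 to -0.25 for FOS to FOSL1, -0.31 to -0.25 for FOSB to FOSL1 and -0.25 to -0.17 for FOS to FOSL2. They stayed at -0.24 to -0.12 for FOSB to FOSL2 and 0.069 to 0.13 for FOSL1 to FOSL2. The adjusted p of FOS to FOSL1 came to 0.05 or more in 6 of the 12 tests with 1 library left out, those without DMSO-S30 replicates 1 or 2, dTAG-S0 replicates 1 or 2, or dTAG-S30 replicates 1 or 3. FOSB to FOSL1 was lost in the same cases except dTAG-S0 replicate 2. FOS to FOSL2 was kept only without DMSO-S30 replicate 3 or dTAG-S30 replicate 2, FOSB to FOSL2 only without DMSO-S30 replicate 3, dTAG-S0 replicates 2 or 3 or dTAG-S30 replicate 2, and FOSL1 to FOSL2 only without dTAG-S0 replicate 3. Over these tests the adjusted p ranged from 0.03 to 0.138, and the direction held in all of them for these 5 ratios.

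**Figure D5:**
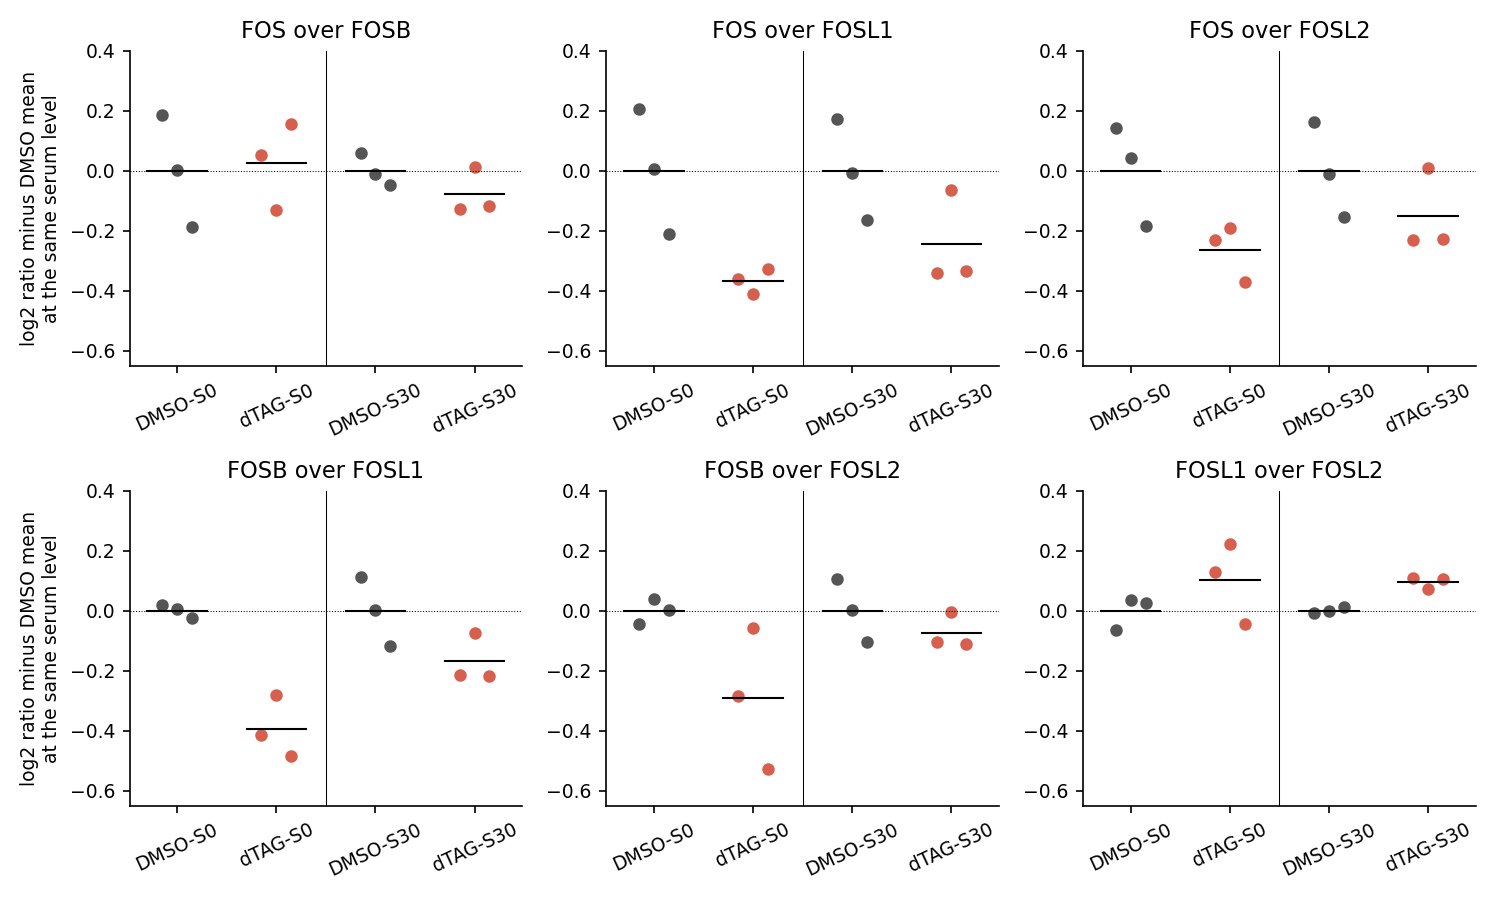
Log2 ratio of each pair of members (per kb) in each library, set against the mean of the DMSO libraries at the same serum level, with DMSO in grey, dTAG in red and lines for means. The ratios of FOS and FOSB to FOSL1 are 0.17 to 0.39 lower on average in dTAG libraries at both serum levels, while the mean ratio of FOS to FOSB differs by 0.03 at S0 and -0.08 at S30.

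Genes whose log2 CPM followed each member most closely over the 12 libraries were themselves serum-induced genes. For FOS they were CCN1, FOSB, CSRNP1, EGR1 and DUSP2 (Pearson's r 0.9982 to 0.9997), and for FOSB they were CCN1, FOS, CSRNP1, ZFP36 and PTGER4. For FOSL1 they were DUSP5, SRF, NR4A1, IER2 and ATF3, and for FOSL2 they were EGR3, NR4A2, SRF, GEM and ATF3. Between members r was 0.999 for FOS and FOSB, 0.998 for FOSL1 and FOSL2, and 0.996 to 0.997 across the pairs. The libraries share the serum contrast, which sets most of these values, so they are given as a description.

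Of the bZIP genes that pair or compete with FOS proteins, 15 of 17 listed were tested. Serum in DMSO-treated cells raised 10 and lowered 1, with a median log2 fold change of 0.85, against 9.18% of all genes higher and 17.1% lower. The largest changes were ATF3, a stress-induced AP-1 partner (6.06), JUN, the classic partner of FOS (4.26), and MAFF, a small MAF protein (3.16). In dTAG-treated cells 10 rose and 1 fell as well (median 0.55, against 9.09% and 15.4% of all genes), led by ATF3 (5.36), JUN (3.32) and MAFF (2.65). JUN and JUND were higher with dTAG without serum (log2 fold change 0.69 and 0.34, edgeR adjusted p = 0.000116 and 0.0268), where 1.31% of all genes were called, and ATF3 was lower with dTAG at S30 (-0.41, edgeR adjusted p = 0.000912), where 0.634% of all genes were called lower. The interaction passed for JUN (-0.94, edgeR adjusted p = 0.000362) and ATF3 (-0.70, adjusted p = 0.00604), where 0.0382% of all genes passed. JUN therefore passed in the interaction where no FOS family member did, and whether JUN differed from them was not tested.

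Upstream of the family, 12 genes were tested from a list of SRF, its cofactors and other factors listed as direct activators. With serum in DMSO-treated cells 7 rose and 0 fell (median 0.19, against 9.18% of all genes higher). The largest changes were SRF at 2.73, CREM, a cyclic AMP-responsive factor, at 1.82 and ETS2 at 0.90. Most of the SRF cofactors tested were not called. In dTAG-treated cells 4 rose, SRF (2.53), CREM (1.49), ETS2 (1.03) and STAT3 (0.50). The ERK cascade carries the signal from growth factor receptors to the nucleus. Of 22 of its transcripts tested in DMSO-treated cells 1 rose, SHC1 (0.36), and 3 fell, SOS1 (-0.18), SOS2 (-0.18) and MAPK7 (-0.41), and in dTAG-treated cells SHC1 rose (0.32) and SOS1 fell (-0.17). The medians of the list were -0.03 and 0.00, and the calls stand against 9.18% of all genes higher and 17.1% lower in DMSO-treated cells. In dTAG-treated cells 9.09% of all genes were called higher and 15.4% lower. No gene of either list was called with dTAG at either serum level, or in the interaction, by edgeR at an adjusted p under 0.05, where 1.31%, 1.23% and 0.0382% of all genes were called.

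AU-rich mRNA decay shortens the life of FOS mRNA. Of 9 factors of AU-rich mRNA decay and stability, 4 rose with serum in each treatment and 0 fell. Of all genes, 9.18% were called higher in DMSO-treated and 9.09% in dTAG-treated cells. The 4 were ZFP36, also known as TTP (3.42 in DMSO-treated and 3.36 in dTAG-treated cells), ZFP36L1 (0.74 and 0.76), ZFP36L2 (0.70 and 0.82) and the deadenylase PARN (0.73 and 0.58). None of the 9 was called with dTAG. Of 10 genes for FOS protein turnover and co-regulation, CEBPB rose (0.60 and 0.53) and CDK8 fell (-0.27 and -0.25) in both treatments, MED23 fell in dTAG-treated cells (-0.21), and none was called with dTAG. The share of all genes called lower with serum was 17.1% and 15.4% in the 2 treatments, and that called with dTAG was 1.31% at S0 and 1.23% at S30.

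Of 24 textbook AP-1 target genes 15 were tested. Serum in DMSO-treated cells raised 9 and lowered 1 (median 0.60, against 9.18% and 17.1% of all genes), among them CXCL8, a chemokine (3.74), and the protease PLAU (2.31). In dTAG-treated cells 9 rose and 0 fell (median 0.54, against 9.09% and 15.4% of all genes), among them CXCL8 (1.98) and PLAU (1.95). Without serum 5 of the 15 were higher with dTAG, CXCL8 (1.69), HMOX1 (0.74), PLAUR (0.57), PLAU (0.49) and VEGFA (0.38), against 1.31% of all genes in either direction. With serum VEGFA was higher with dTAG (0.32), where 1.23% of all genes were called in either direction. In the interaction CXCL8 was lower (-1.76, edgeR adjusted p = 2.62e-06), where 0.0382% of all genes were called. The lists were written with earlier results of these data known, so these counts are descriptions.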

How the data were processed

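Per the study's methods, the authors trimmed reads with Trim Galore 0.6.4, mapped them to hg38 with STAR and counted them with featureCounts (Subread 1.6.3) over whole genes. The deposited values are raw counts per gene and ERCC transcript. Strand setting and treatment of multi-mapping reads are not given in the sources used here. The test took in 13093 genes that reached 10 counts in 6 or more libraries and left out 6808. All 12 libraries were fitted together in edgeR 4.0.16 (R 4.3.3, quasi-likelihood F-test, two-sided) after upper-quartile scaling with 1 RUVg factor from 69 ERCC transcripts. The p-values were adjusted by Benjamini-Hochberg over all genes tested, and a gene is called at an adjusted p under 0.05. Ratios used counts per kb with a pseudocount of 0.5 and exact two-sided permutation tests.

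The members and lists were chosen with earlier results of these data known. Genes named from a list are those called, or the 3 with the largest absolute log2 fold change where more than 5 were called, and for each member the 5 genes with the highest Pearson's r. A gene that this rule gives among the AP-1 targets is not reported here. DESeq2 1.42.0, other scalings, a replicate block and leaving out each library were alternatives. Counting error and the spread between libraries set the precision, and PCR duplicates cannot be told from molecules.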

Additional observations from a re-analysis of the deposited data

How the results depend on the processing

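The serum effects, the dTAG effects without serum and the interaction kept direction and side of the threshold for all 4 members under every alternative run. With serum, FOS was not past the threshold with ERCC library sizes (-0.31), and FOSB passed under TMM scaling (-0.23), upper-quartile scaling with no factor (-0.23), DESeq2 (-0.24), the likelihood ratio test (-0.22) and no count filter (-0.23). The cause was not tested. Leaving out 1 library gave -0.40 to -0.25 for FOS and -0.28 to -0.19 for FOSB. For the ratios under dTAG it gave -0.072 to 0.022 (FOS to FOSB, the ratio whose sign changed, to 0.022 without DMSO-S0 replicate 1 and 0.014 without dTAG-S0 replicate 2), -0.36 to -0.25 (FOS to FOSL1), -0.25 to -0.17 (FOS to FOSL2), -0.31 to -0.25 (FOSB to FOSL1), -0.24 to -0.12 (FOSB to FOSL2) and 0.069 to 0.13 (FOSL1 to FOSL2). A pseudocount of 1 changed no call.

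Replicate numbers did not pair the samples in every comparison: correlations of same-numbered deviations ran from -0.15 to 0.10, and not every library correlated best with its own number. Between DMSO-S0 and DMSO-S30 each library did, at 0.0506 to 0.0637, while differently numbered libraries were at -0.0535 to -0.0023. With a replicate block FOS was at -0.35 and FOSB at -0.24 at S30, no member's call changed, and the counts of genes called at S0 and S30 went from 171 and 161 to 173 and 167. Over the other settings these counts ran from 76 to 306 and from 66 to 304 (67 to 272 and 95 to 257 without 1 library), and that of the interaction from 3 to 23 against 5. Under TMM scaling 1764 genes were higher and 1187 lower with serum in DMSO-treated cells, against 1202 and 2237.

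Shares of the family depend on the length used. From raw counts, in DMSO-S0, in DMSO-S30, in dTAG-S0 and in dTAG-S30 in that order, FOS held 4.56%, 28.2%, 3.78% and 26.3%, FOSB 4.11%, 24.6%, 3.37% and 24.1%, FOSL1 22.9%, 13.1%, 24.5% and 14.5%, and FOSL2 68.5%, 34.1%, 68.3% and 35.2%. Per kb of exons, added after seeing the data, FOS held 6.01%, 35.4%, 4.87% and 32.8%, FOSB 3.10%, 17.7%, 2.49% and 17.2%, FOSL1 50.8%, 27.8%, 53.3% and 30.5%, and FOSL2 40.1%, 19.0%, 39.3% and 19.5%. At 94 to 121 raw counts per library, FOS and FOSB without serum are the least precise values.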
